A study of Mus musculus with 6 samples.

Results

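The genes described are 10 cathepsins, the main proteases of lysosomes and endosomes, chosen by gene symbol and all present among the 18039 genes of the deposited table: Ctsa, Ctsb, Ctsc, Ctsd, Ctse, Ctsh, Ctsk, Ctsl, Ctss and Ctsz. Their RNA was compared between KAT7KO and Ctrl mouse bone marrow-derived macrophages, with 3 libraries of each genotype. These are macrophages grown in culture from marrow cells, here for 7 days with the growth factor M-CSF at 20 ng/mL, which both genotypes received. KAT7, of the MYST family, adds acetyl groups to lysines of histones. The labels give neither the allele nor the cells in which it was lost, nor the age, sex or strain of the mice, and they do not say what the Ctrl cells carry. The targeted gene, Kat7, stood at 40.6 ± 2.12 CPM in KAT7KO and 70.9 ± 2.13 CPM in Ctrl (SD, n = 3 each), where CPM is the count scaled to library size. Kat7 thus fell by 0.80 in log2 units (SE 0.06, edgeR adjusted p = 9.63e-07), and the deleted part of the gene is not stated in the labels.

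Cathepsins are made as inactive proenzymes, tagged with mannose 6-phosphate in the Golgi and carried to acidic compartments, where the propeptide is removed. They fall into classes by the residue that cuts the peptide bond. Ctsd and Ctse encode aspartic proteases, Ctsa a serine carboxypeptidase, and the other members cysteine proteases of the papain family. In macrophages they digest phagocytosed material, trim antigens for MHC class II and, when secreted, cut elastin and collagen.

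Each library held 19906726 to 20660090 counts, and every member had enough counts to be tested. The cells carried macrophage markers in both genotypes, among them Cd68 at 2802 CPM in KAT7KO and 2621 CPM in Ctrl. Of 10 such markers none rose and 3 fell, beside 10.7% higher and 13.2% lower of all genes tested. Those that fell include Lyz2, by 0.68 on the log2 scale, and Itgam, by 0.42. The 10 markers summed to 22560 to 23390 CPM in KAT7KO and 27826 to 37567 CPM in Ctrl. Most of this sum was Lyz2, which stood at 17980.5 CPM in KAT7KO and 28852.5 CPM in Ctrl. The other 9 summed to 4932 to 5003 CPM in KAT7KO and 4793 to 4939 CPM in Ctrl. The part of the Lyz2 shift in the results on cathepsins was not tested. The 3 KAT7KO libraries lay closer to one another than the 3 Ctrl libraries did. Ctrl replicate 1 stood apart: its values, set against each gene's mean over the 6 libraries, rose with gene length. The slope was 0.10 on the log2 scale per doubling of length, against -0.04 to 0.02 in the other 5 libraries. Being set against a shared mean, these slopes are not independent of one another. The calls on members are given without this library as well, but those on other genes only in part, and sums of CPM are not. In bulk RNA, fewer cells of a type and less RNA per cell cannot be told apart.

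KAT7KO macrophages carried more RNA for 6 of the 10 cathepsins and less for 1. Ctse rose 3.30-fold from a low level, the collagen-degrading Ctsk and the aminopeptidase Ctsh rose by close to 1.5-fold, and Ctsc, Ctsd and Ctsz rose by smaller amounts. Ctsl fell, and the very abundant Ctsb and Ctss, with Ctsa, did not pass the test. Testing was by edgeR's quasi-likelihood test over 12483 genes, at a Benjamini-Hochberg adjusted p of 0.05. Over all genes tested 10.7% were higher and 13.2% lower in KAT7KO. Among the 1693 genes with a mean of at least 100 CPM, a bound that every member but Ctse exceeds and that was set after the levels were seen, 23% were higher and 13.3% lower. The median log2 fold change of the members was 0.22, beside 0.0023 over all genes tested and 0.049 over those of at least 100 CPM. The 3 values of KAT7KO and of Ctrl did not overlap for 9 members, and for 41% of all genes tested. Without Ctrl replicate 1, 8 members were higher and 1 lower, beside 13.5% and 14.4% of all genes tested. With a gene-length trend removed from each library, 8 were higher and Ctsl no longer passed, beside 20.5% higher and 12.2% lower of all genes tested, while the share of higher genes among all calls went to 62.7%, beside 44.7% in the analysis as reported.

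**Figure D1:**
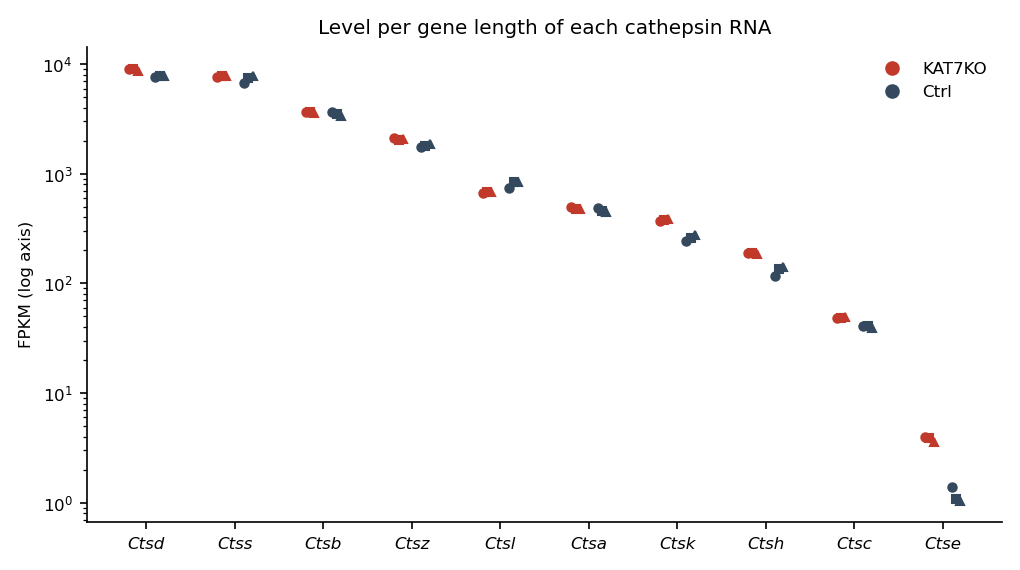
Level per gene length (FPKM, log axis) of each cathepsin in the 3 KAT7KO and 3 Ctrl libraries; marker shapes are replicates 1 to 3. The members span from a mean of 8952 FPKM in KAT7KO and 7740.0 FPKM in Ctrl for Ctsd to 3.79 FPKM in KAT7KO and 1.17 FPKM in Ctrl for Ctse, in the same order in both genotypes.

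Levels of different genes were compared as FPKM, the authors' count scaled to gene length and library size. Ctsd stood highest, at 8952 ± 200.4 FPKM in KAT7KO and 7740.0 ± 141 FPKM in Ctrl (SD, n = 3 each). Ctss followed at 7814 ± 83.4 FPKM in KAT7KO and 7312 ± 539.8 FPKM in Ctrl. By mean FPKM over the 6 libraries these were the 4th and 5th highest of all genes in the table, and Ctsb was the 13th. Below them came Ctsb, Ctsz, Ctsl, Ctsa, Ctsk, Ctsh and Ctsc, and Ctse was last, at 3.79 ± 0.18 FPKM in KAT7KO and 1.17 ± 0.19 FPKM in Ctrl. The order was the same in both genotypes. Among neighbours in this order only Ctsd and Ctss had overlapping values, and only in the Ctrl libraries. Together the 10 genes took 6.55%, 6.53% and 6.44% of all counts in the KAT7KO libraries and 5.98%, 6.10% and 6.09% in the Ctrl libraries. The summed share in KAT7KO was 1.07 times that in Ctrl, with no overlap, and no test was made on a sum over chosen members.

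**Figure D2:**
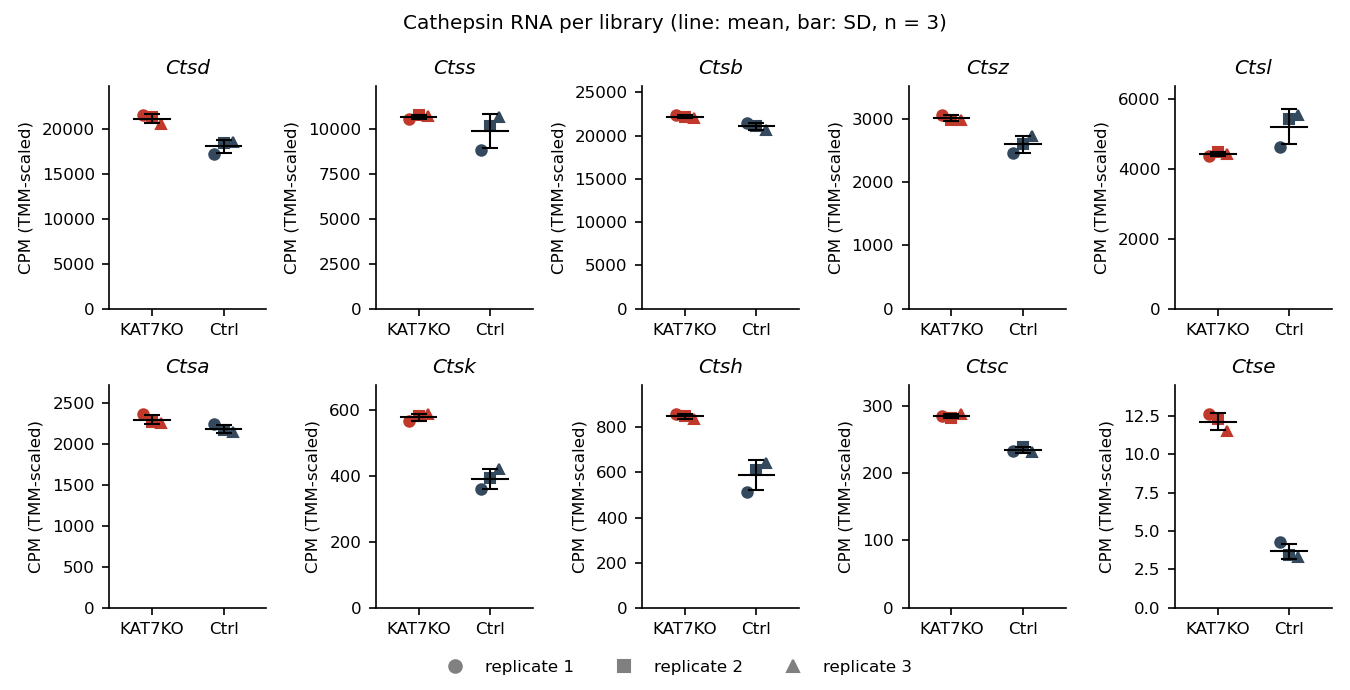
Library-scaled counts (CPM) of each cathepsin in every library, KAT7KO left of Ctrl, with all axes starting at 0; lines are means and bars SD (n = 3), and marker shapes are replicates. The KAT7KO values lie close together for each gene, while Ctrl replicate 1 (circles) is the lowest Ctrl value for Ctsd, Ctss, Ctsz, Ctsl, Ctsk and Ctsh and the highest for Ctsb, Ctsa and Ctse.

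Both aspartic cathepsins rose. Ctsd, the main aspartic endopeptidase of lysosomes, had 21595, 21352 and 20642 CPM in the KAT7KO libraries and 17285, 18435 and 18581 CPM in the Ctrl libraries. All KAT7KO values were above all Ctrl values, and Ctrl replicate 1 was the lowest. The log2 fold change was 0.23 (SE 0.05, edgeR adjusted p = 0.00241). Ctse encodes cathepsin E, an endosomal enzyme best known from the stomach and from immune cells. It had 251, 247 and 227 reads in the KAT7KO libraries and 88, 70 and 68 in the Ctrl libraries, or 12.6, 12.3 and 11.5 CPM against 4.25, 3.42 and 3.33 CPM. The genotypes were far apart, and Ctrl replicate 1 was the highest of its group. The change came to 1.72 on the log2 scale (95% interval 1.44 to 2.00, SE 0.13, edgeR adjusted p = 8.33e-07), the 64th largest in size of all genes tested. The FPKM of Ctse was 0.000432, 0.000427 and 0.000412 of that of Ctsd in the KAT7KO libraries, against 0.000182, 0.000138 and 0.000133 in the Ctrl libraries.

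Markers of other cell types that can carry Ctse were read beside it. B cell markers summed to 145 to 160 CPM in KAT7KO and 109 to 127 CPM in Ctrl, nearly all of it Cd22, which stood at 146 CPM in KAT7KO and 117 CPM in Ctrl. All 8 were in the table, and 2 of 4 tested rose (Cd22 and Ms4a1), beside 10.7% of all genes tested. At an unadjusted p of 0.05 with edgeR 3 were higher, and with DESeq2 2 were. Ms4a1 stood at 1.39 CPM in KAT7KO and 0.42 CPM in Ctrl. Cd79a was at 1.24 CPM in KAT7KO and 0.60 CPM in Ctrl, without overlap (edgeR adjusted p = 0.0553). Cd79b was at 1.87 CPM in KAT7KO and 1.38 CPM in Ctrl and did not pass. Of 8 dendritic cell markers 6 were in the table, and they summed to 7.02 to 8.35 CPM in KAT7KO and 7.49 to 8.45 CPM in Ctrl. None of the 3 tested passed with edgeR, none had an unadjusted p under 0.05, and none passed with DESeq2. Of those not tested, Clec9a stood at 0.20 CPM in KAT7KO and 0.049 CPM in Ctrl. Flt3 was at 0.10 CPM in KAT7KO and 0.033 CPM in Ctrl, and Cd209a at 0.067 CPM in KAT7KO and 0.097 CPM in Ctrl. Of 10 neutrophil markers 7 were in the table. They summed to 10.7 to 12.3 CPM in KAT7KO and 7.20 to 7.39 CPM in Ctrl, most of it S100a8 (log2 fold change 0.86, edgeR adjusted p = 0.00011), the 1 of them tested. Of those with too few counts for a test, Cxcr2 stood at 0.083 CPM in KAT7KO and 0.55 CPM in Ctrl, and Ltf at 0.20 CPM in KAT7KO and 0.37 CPM in Ctrl. The other way went Elane, at 0.28 CPM in KAT7KO and 0.18 CPM in Ctrl, and Camp, at 0.067 CPM in KAT7KO and 0.032 CPM in Ctrl. Mpo was at 0 in all KAT7KO libraries and Ngp at 0 in all Ctrl libraries. The part of these cells in the Ctse result was not tested.

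The cysteine endopeptidases went different ways. Ctsk encodes cathepsin K, the collagenase of osteoclasts. It had 566, 581 and 587 CPM in the KAT7KO libraries and 359.7, 393 and 419.6 CPM in the Ctrl libraries. Every KAT7KO library stood above every Ctrl library. The log2 fold change was 0.56 (SE 0.06, 95% interval 0.44 to 0.68, edgeR adjusted p = 9.70e-06). Ctsl encodes cathepsin L, a strong endopeptidase that also processes other cathepsins and the invariant chain of MHC class II in thymic epithelium. Its values were 4360.0, 4470.0 and 4435 CPM in KAT7KO and 4626, 5434 and 5538 CPM in Ctrl. The groups did not overlap, but Ctrl replicate 1 lay close to the KAT7KO values. Ctsl fell by 0.23 on the log2 scale (SE 0.06, 95% interval -0.36 to -0.10, edgeR adjusted p = 0.0126). Its call was lost with the gene-length trend removed (-0.14, adjusted p = 0.208), without any 1 of the KAT7KO libraries (adjusted p = 0.0607 to 0.0763) and without Ctrl replicate 2 (adjusted p = 0.0805), always with a value below 0. Without Ctrl replicate 1 its log2 fold change was -0.31.

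Ctss encodes cathepsin S, which stays active at neutral pH and cuts the invariant chain in macrophages, dendritic cells and B cells. It had 10566, 10775 and 10718 CPM in the KAT7KO libraries and 8845, 10149 and 10661 CPM in the Ctrl libraries. This was the only member whose genotypes overlapped, since the highest Ctrl library reached the KAT7KO range. The log2 fold change was 0.11 (95% interval -0.01 to 0.24, edgeR adjusted p = 0.186). Leaving out Ctrl replicate 3 gave 0.17, which passed (adjusted p = 0.0258), and leaving out Ctrl replicate 1 gave 0.04 (adjusted p = 0.278).

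Osteoclast and stromal cells also make Ctsk. Among osteoclast markers, Acp5, the tartrate-resistant acid phosphatase, rose by 0.67 on the log2 scale (edgeR adjusted p = 7.92e-07), while Itgb3 fell by 3.43, Mmp9 fell by 1.95 and the fusion receptor gene Dcstamp fell by 1.25. Atp6v0d2 (log2 fold change -0.01) and Nfatc1 (-0.05) did not pass, and the list median was -0.65. The 6 of 9 markers in the table summed to 1198 to 1268 CPM in KAT7KO and 1142 to 1177 CPM in Ctrl, with none at 0. Most of this sum was Atp6v0d2, at 788 CPM in KAT7KO and 794 CPM in Ctrl. Acp5 was next, at 362 CPM in KAT7KO and 228 CPM in Ctrl. All 10 stromal markers were in the table and none was at 0. They summed to 785 to 805 CPM in KAT7KO and 886 to 1126 CPM in Ctrl, and 5 of 10 fell, beside 13.2% of all genes tested. Those that fell include Pdgfra, by 0.58, Col6a3, by 0.78, Cxcl12, by 0.64, and Dcn, by 0.35. The other 5 did not pass, with log2 fold changes such as 0.0029 for Col3a1 and 0.34 for Pdgfrb. The part of either cell type in the Ctsk result was not tested.

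**Figure D3:**
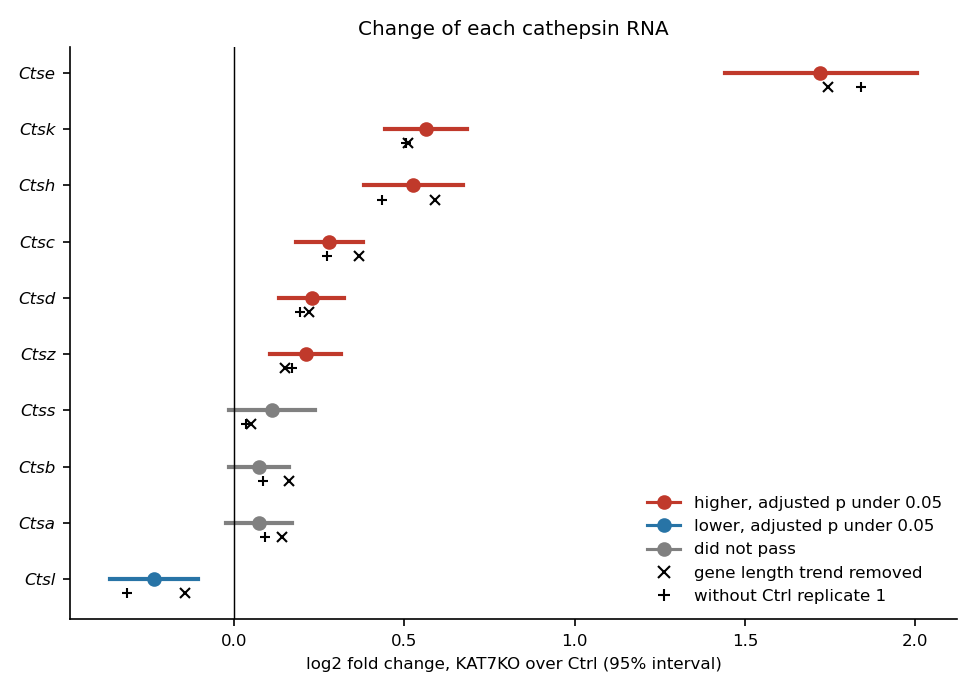
Log2 fold change of each cathepsin, KAT7KO over Ctrl, with its 95% interval (circles and lines, coloured by the call), and the value with the gene-length trend removed (crosses) and without Ctrl replicate 1 (plus signs). Ctse lies at 1.72, Ctsk and Ctsh above 0.5, and only Ctsl below 0.

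Of the cysteine exopeptidases 3 rose, beside 10.7% of all genes tested. Ctsh, an aminopeptidase, had 857, 851 and 836 CPM in the KAT7KO libraries and 513, 612 and 641 CPM in the Ctrl libraries. The groups were well separated. The log2 fold change was 0.53 (SE 0.07, edgeR adjusted p = 9.23e-05), and 0.43 without Ctrl replicate 1, the lowest library. Ctsc encodes the dipeptidyl peptidase that activates the serine proteases of granulocyte and lymphocyte granules. It had 284, 282 and 287 CPM in KAT7KO and 232, 239 and 232 CPM in Ctrl, with little spread inside either genotype (log2 fold change 0.28, SE 0.05, edgeR adjusted p = 0.000567). Ctsz, a carboxypeptidase, had 3062, 2976 and 2987 CPM in KAT7KO and 2457, 2611 and 2729.8 CPM in Ctrl, again without overlap (log2 fold change 0.21, SE 0.05, edgeR adjusted p = 0.00647). Its call was lost without KAT7KO replicate 1 (0.20, adjusted p = 0.0595).

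Ctsb, which acts as both an endopeptidase and a carboxypeptidase, took more counts than any other member. It had 22386, 22164 and 22015 CPM in the KAT7KO libraries and 21473.5, 21071 and 20667 CPM in the Ctrl libraries. The values did not overlap, but the difference was small, with a log2 fold change of 0.07 (95% interval -0.01 to 0.16), and did not pass (edgeR adjusted p = 0.209). Ctsa encodes the serine carboxypeptidase that protects lysosomal beta-galactosidase and neuraminidase. Its values were 2367, 2273 and 2263 CPM in KAT7KO and 2242, 2172 and 2146 CPM in Ctrl (log2 fold change 0.07, 95% interval -0.02 to 0.17, edgeR adjusted p = 0.254). Both genes passed without Ctrl replicate 1, at 0.09 for each (adjusted p = 0.00165 for Ctsb and adjusted p = 0.0129 for Ctsa), and with the gene-length trend removed, at 0.16 for Ctsb and 0.14 for Ctsa. In the authors' deposited table all 10 members had the same call, and no log2 fold change differed from the value here by more than 0.0081.

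Because several members were lowest in Ctrl replicate 1, levels were also set against each other within each library. The FPKM of Ctsl was 0.0864, 0.0868 and 0.0866 of that of Ctss in the KAT7KO libraries and 0.109, 0.112 and 0.109 in the Ctrl libraries. This ratio varied less among the Ctrl libraries than either gene did, and the genotypes did not overlap. Ctsk over Ctss was 0.0481, 0.0484 and 0.0492 in KAT7KO and 0.0365, 0.0348 and 0.0353 in Ctrl. Among exopeptidases, Ctsh over Ctsc was 3.89, 3.90 and 3.76 in KAT7KO and 2.86, 3.31 and 3.57 in Ctrl, and Ctsz over Ctsb was 0.574, 0.564 and 0.570 in KAT7KO and 0.480, 0.520 and 0.555 in Ctrl. In these last pairs Ctrl replicate 1 was the lowest and Ctrl replicate 3 the nearest to KAT7KO. A trend with gene length does not cancel where paired genes differ in length. The lengths implied by FPKM were 6489 bases for Ctsl and 1358 for Ctss, and 1441 for Ctsz and 6051 for Ctsb. With the gene-length trend removed, the log2 fold changes of Ctsz and Ctsb were close, at 0.15 and 0.16. Those of Ctsl and Ctss were then -0.14 and 0.05. In the makeup of the family's summed FPKM, Ctsl took 2.79% ± 0.05 in KAT7KO and 3.64% ± 0.17 in Ctrl, and Ctsk took 1.57% ± 0.04 in KAT7KO and 1.18% ± 0.03 in Ctrl (SD, n = 3 each).

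**Figure D4:**
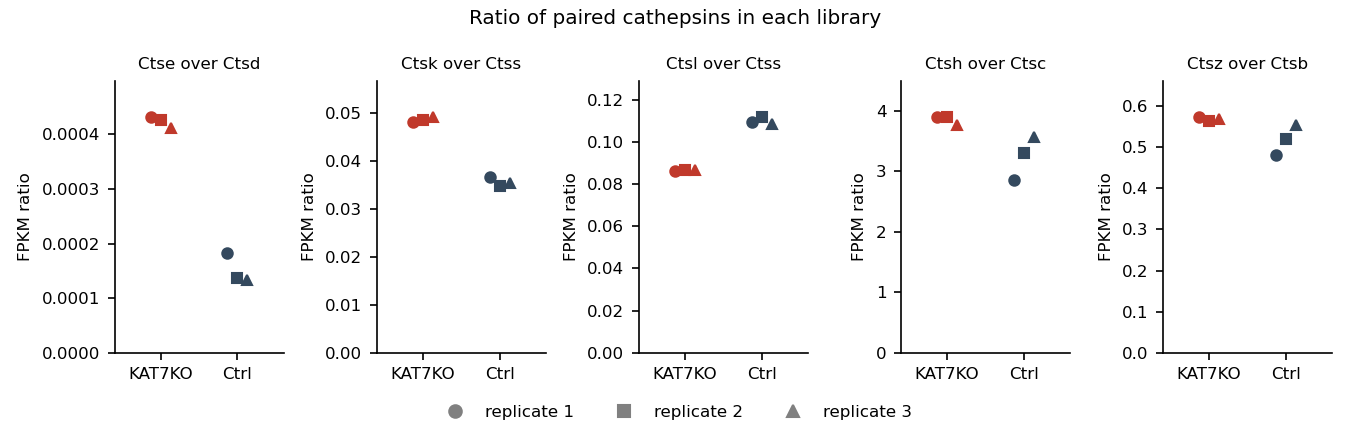
FPKM of one cathepsin divided by that of a paired member, in each library, KAT7KO left of Ctrl; marker shapes are replicates and axes start at 0. Ctsl over Ctss is lower in all 3 KAT7KO libraries (0.0864 to 0.0868) than in the Ctrl libraries (0.109 to 0.112), and the other pairs are higher in KAT7KO. The trend with gene length in Ctrl replicate 1 does not cancel where the genes of a pair differ in length.

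Ctsk and Ctss are neighbours on chromosome 3, so a gene that rose by 0.56 on the log2 scale lies beside one that did not pass at 0.11, and no other members adjoin. Of the other genes that flank the members in the RefSeq order, 12 were tested. Among these 1 was higher and 2 were lower, beside 10.7% and 13.2% of all genes tested. Pltp, the phospholipid transfer protein gene beside Ctsa, fell by 0.49 on the log2 scale (edgeR adjusted p = 1.74e-05). Cdk20, a kinase gene beside Ctsl, fell by 0.51 (adjusted p = 0.000121). Fdft1, the squalene synthase gene beside Ctsb, rose by 0.18 (adjusted p = 0.0352), a call lost in 8 of 13 alternatives. Rab7b, an endosomal GTPase gene beside Ctse, was at 348 CPM in KAT7KO and 339 CPM in Ctrl and did not pass (log2 fold change 0.04, adjusted p = 0.582).

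Promoter sequence was at hand for 7 of the 10 members, as 8 RefSeq windows of 300 bases in build GRCm38.p6 that begin 250 bases before the start of transcription. The E-box CACGTG, the core of the site bound by the TFEB family of lysosomal regulators, was in 3 of the 8 windows (Ctsa, Ctsd and Ctsl) and in 7.15% of all 32851 windows. The longer TCACGTG, which overlaps it, was in 2 (Ctsa and Ctsd) and in 3.77% of all. GAGGAAG, a sequence like sites of the myeloid factor PU.1, was in 3 (Ctsc, Ctsk and Ctss) and in 13.6% of all. Both strands were searched for each motif, and variants of GAGGAAG were not searched. These matches are of letters and show no binding. The stretches are printed 5′ to 3′ on the strand of the gene, with the motif or its reverse complement in capitals, to set genes that rose (Ctsd, Ctsk and Ctsc) beside one that fell (Ctsl) and those that did not pass (Ctsa and Ctss). They lie at chr7:142387880-142387965 (minus strand) for Ctsd, chr13:64370711-64370770 (minus) for Ctsl, chr2:164833721-164833787 (plus) for Ctsa, chr3:95499111-95499197 (plus) for Ctsk, chr3:95526745-95526800 (plus) for Ctss and chr7:88277848-88277981 (plus) for Ctsc.
Ctsd: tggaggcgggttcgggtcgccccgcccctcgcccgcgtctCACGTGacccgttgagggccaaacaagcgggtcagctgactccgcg
Ctsl: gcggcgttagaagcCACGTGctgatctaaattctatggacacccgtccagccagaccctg
Ctsa: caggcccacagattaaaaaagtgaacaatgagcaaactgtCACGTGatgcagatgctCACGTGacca
Ctsk: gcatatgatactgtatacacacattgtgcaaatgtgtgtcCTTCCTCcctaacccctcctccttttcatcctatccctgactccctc
Ctss: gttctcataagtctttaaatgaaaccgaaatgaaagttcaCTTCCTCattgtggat
Ctsc: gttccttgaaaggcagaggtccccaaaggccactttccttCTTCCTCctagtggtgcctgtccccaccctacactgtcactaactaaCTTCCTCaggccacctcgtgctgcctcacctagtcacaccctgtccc
The printed E-box begins 98 bases before the start in Ctsd, 236 in Ctsl and 12 in Ctsa, whose second copy lies just after the start. A second E-box of Ctsd, not printed, begins 245 bases before it, at chr7:142388027-142388077 with its flanks. The PU.1-like sequence begins 59 bases before the start in Ctsk, with another at 233 that is not printed. In Ctsc it begins 197 and 150 bases before the start. In Ctss it begins 1 base before the start and so spans it. The E-box was thus in the windows of a gene that rose, one that fell and one that did not pass. The PU.1-like sequence was in those of Ctsk and Ctsc, which rose, and Ctss, which did not pass.

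**Figure D5:**
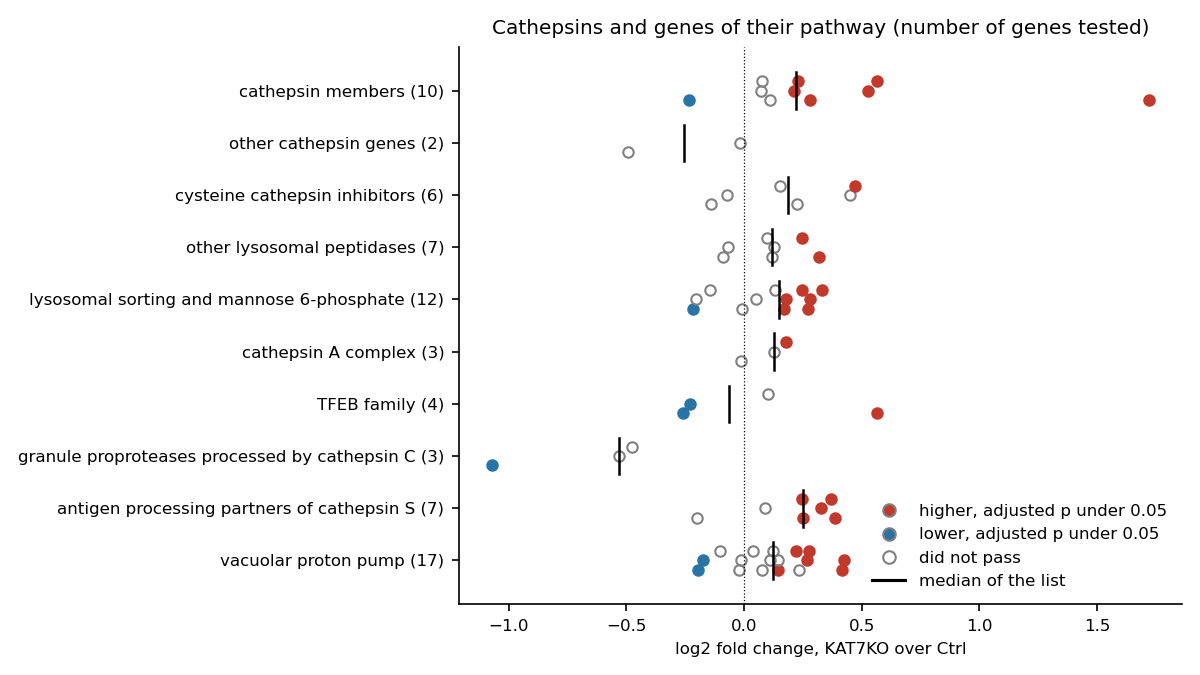
Log2 fold change, KAT7KO over Ctrl, of every tested gene in the cathepsin family and in the lists of its pathway (circles, coloured by the call; vertical lines are list medians). The members and the antigen processing partners have the highest medians, 0.22 and 0.25.

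Genes that carry cathepsins to the lysosome changed by small amounts. Of 12 genes of mannose 6-phosphate tagging and sorting, 6 rose and 1 fell, with a list median of 0.15. Over all genes tested 10.7% were higher and 13.2% lower, and the median was 0.0023. Among genes with a mean of at least 100 CPM 23% were higher, with a median of 0.049. Nagpa, the enzyme that uncovers the mannose 6-phosphate tag, rose by 0.33 on the log2 scale (SE 0.05), and Gnptg, a subunit of the enzyme that adds it, rose by 0.27 (SE 0.08). The call on Gnptg was lost without KAT7KO replicate 1 (adjusted p = 0.122) or KAT7KO replicate 2 (adjusted p = 0.0824). M6pr, the cation-dependent mannose 6-phosphate receptor, had 423 ± 5.99 CPM in KAT7KO and 357 ± 11.2 CPM in Ctrl (SD, n = 3 each; log2 fold change 0.24, edgeR adjusted p = 0.00192). Scarb2, which carries glucocerebrosidase rather than cathepsins, rose by 0.28. Outside the naming rule, Sort1 and Gga2 rose and Gga3 fell, and with DESeq2 5 rose and none fell. Igf2r, the larger mannose 6-phosphate receptor, was at 374 CPM in KAT7KO and 431 CPM in Ctrl and did not pass (log2 fold change -0.20, adjusted p = 0.137).

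The proton pump acidifies the compartments in which cathepsins work. Of its 17 measured subunit and accessory genes 6 rose and 2 fell, with a median of 0.12. Over all genes tested 10.7% were higher and 13.2% lower, with a median of 0.0023. Each pump gene had a mean above 100 CPM. Among genes with a mean of at least 100 CPM, 23% were higher and 13.3% lower, with a median of 0.049. Atp6v1f rose by 0.42, Atp6v1e1 by 0.28 and Atp6v1c1 by 0.22 on the log2 scale, and Atp6v0a1 fell by 0.19. The call on Atp6v0a1 was lost without any 1 of the KAT7KO libraries (adjusted p = 0.0507 to 0.0873) and with the gene-length trend removed (adjusted p = 0.0568). With the gene-length trend removed, 11 rose and 1 fell, beside 20.5% higher and 12.2% lower of all genes tested. The median over all genes then moved up to 0.059. Without Ctrl replicate 1, 8 pump genes rose and 3 fell, beside 13.5% and 14.4% of all genes tested.

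Of 4 genes of the TFEB family, transcription factors that switch on lysosomal genes, Tfec rose and Tfe3 and Mitf fell. The shares among all genes tested were 10.7% higher and 13.2% lower. Tfec, the macrophage-restricted member, had 26.5, 28.4 and 23.9 CPM in the KAT7KO libraries and 17.4, 17.3 and 18.5 CPM in the Ctrl libraries (log2 fold change 0.57, SE 0.09, edgeR adjusted p = 0.000386). Its genotypes did not overlap. Tfe3 was lower in KAT7KO by 0.26 on the log2 scale (log2 fold change -0.26, SE 0.05), and Mitf by 0.23 (log2 fold change -0.23, adjusted p = 0.0336), a call lost with DESeq2 (adjusted p = 0.0607), with the length trend removed (adjusted p = 0.109) and without any 1 of the KAT7KO libraries (adjusted p = 0.0799 to 0.128). Tfeb itself was at 96.0 CPM in KAT7KO and 89.3 CPM in Ctrl and did not pass (adjusted p = 0.194).

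Cystatins, and some serpins, are the natural inhibitors of cysteine cathepsins. Of 6 tested inhibitor genes 1 rose, beside 10.7% of all genes tested, and the list median was 0.19, beside 0.0023. That gene was Serpina3g, a serpin of activated leukocytes that can block cathepsins, at 13.6 ± 0.73 CPM in KAT7KO and 9.79 ± 0.76 CPM in Ctrl (SD, n = 3 each; log2 fold change 0.47, edgeR adjusted p = 0.00471). Serpina3 genes are a family of near copies, so reads may be shared. Cst3, the secreted inhibitor cystatin C, was the highest of the list, with 1282, 1308 and 1337 CPM in the KAT7KO libraries and 933, 1156 and 1274 CPM in the Ctrl libraries. The groups did not overlap, though Ctrl replicate 3 came close (log2 fold change 0.22, edgeR adjusted p = 0.106). Cst3 passed with DESeq2 (adjusted p = 0.0373), with the length trend removed (adjusted p = 0.0123), without Ctrl replicate 1 (0.11, adjusted p = 0.0116) and without Ctrl replicate 3 (0.33, adjusted p = 0.00286).

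Cathepsin S works with other proteins of MHC class II loading, and 5 of 7 of their genes rose, with a median of 0.25. Over all genes tested 10.7% were higher, with a median of 0.0023. Ifi30, the thiol reductase that opens disulfides in antigens, had 468 ± 5.40 CPM in KAT7KO and 358 ± 10.8 CPM in Ctrl (SD, n = 3 each; log2 fold change 0.39, SE 0.05, edgeR adjusted p = 5.16e-05). The invariant chain gene Cd74, which encodes the substrate of cathepsin S, rose by 0.33, H2-DMb1 by 0.37 and H2-Ab1 by 0.25. The 2 that did not pass were H2-Eb1 (log2 fold change 0.09) and H2-DMa (-0.20, edgeR adjusted p = 0.113). H2-DMa stood at 18.4 CPM in KAT7KO and 21.2 CPM in Ctrl, without overlap. B cells also express these genes, and their markers are given above beside Ctse.

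In the complex of cathepsin A, Glb1 (beta-galactosidase) rose by 0.18 on the log2 scale (edgeR adjusted p = 0.0152), a call lost without KAT7KO replicate 1, KAT7KO replicate 2 or Ctrl replicate 2 (adjusted p = 0.0624 to 0.0911). Galns (log2 fold change 0.13, adjusted p = 0.0757) did not pass, though it did without Ctrl replicate 1 (adjusted p = 0.00403), nor did the neuraminidase gene Neu1. Of 7 other lysosomal peptidases 2 rose, beside 10.7% of all genes tested. These 2 were the aspartic protease gene Napsa, by 0.32, and the carboxypeptidase gene Prcp, by 0.24. Lgmn, the asparaginyl endopeptidase that matures several cathepsins, was at 2377 CPM in KAT7KO and 2489 CPM in Ctrl and did not pass (adjusted p = 0.281). Granule proteases that cathepsin C activates were scarce. The 7 in the table summed to 3.23 to 4.91 CPM in KAT7KO and 5.42 to 6.07 CPM in Ctrl. Tpsb2, a mast cell tryptase gene, was the 1 of 3 tested that fell, beside 13.2% of all genes tested (log2 fold change -1.07, edgeR adjusted p = 0.0366). It did not pass with DESeq2 (adjusted p = 0.0724) or without KAT7KO replicate 2, KAT7KO replicate 3, Ctrl replicate 1 or Ctrl replicate 2 (adjusted p = 0.0606 to 0.153). The 6 mast cell markers in the table, Tpsb2 among them, summed to 2.78 to 3.61 CPM in KAT7KO and 4.40 to 4.93 CPM in Ctrl.

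Of 13 further cathepsin genes 3 were in the table and the rest were not analysed here. Ctso was at 55.7 CPM in KAT7KO and 56.3 CPM in Ctrl (log2 fold change -0.02, 95% interval -0.14 to 0.11, edgeR adjusted p = 0.874). Ctsf had 3.36, 2.78 and 2.43 CPM in the KAT7KO libraries and 3.77, 4.54 and 3.77 CPM in the Ctrl libraries. Its genotypes did not overlap, but it did not pass (log2 fold change -0.49, 95% interval -0.89 to -0.10, edgeR adjusted p = 0.0676). At an unadjusted p of 0.05 it was the 1 gene lower, and neither gene passed with DESeq2. Ctsw had too few counts to be tested.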

How the data were processed

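RNA of 3 KAT7KO and 3 Ctrl macrophage cultures was sequenced in paired ends, and groups and replicate numbers come from the sample titles. The count columns hold raw whole-number counts per gene and library, as the authors deposited them. The FPKM columns hold the authors' values scaled to gene length and library size, per the file headers. The log2 fold change and the p-value and adjusted p-value columns of the authors' deposited table are of KAT7KO over Ctrl. The submitters' processing notes name FastQC, fastp, HISAT2, featureCounts, DESeq2 and build GRCm39. How strand and multi-mapping reads were handled is not stated in these sources. The reference at hand is GRCm38, so it gave only promoter sequences, synonyms and gene order.

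From the counts, 12483 of 18039 genes passed filterByExpr. In R 4.3.3, edgeR 4.0.16 scaled them by TMM and fitted genotype alone with its robust quasi-likelihood model (glmQLFit and glmQLFTest), with adjustment over all genes tested. SE is the log2 fold change over the square root of F, and intervals are at 95%. The steps were tested on simulated data. Library totals were 19906726 to 20660090, so a count of 3 is 0.145 to 0.152 CPM. The labels call the libraries biological replicates without saying that they came from separate animals, so p-values may cover technical spread only. Replicates differed by a mean chi-square of 2.63 to 3.38 per gene within KAT7KO and of 3.65 to 18.8 within Ctrl. Both lie above the 1 of sampling noise, which does not show that the libraries came from separate animals. Each library was counted as 1 sample.

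Members and gene lists were chosen with earlier results of these data known. Genes named are Kat7, the members, other cathepsins with enough counts, from each list the 4 lowest p among those that passed (or, where fewer than 2 passed, enough of the most abundant to make 2), and the protein-coding genes flanking each member; others are named where a small count or a role called for it, after their values were seen. Other settings tried were DESeq2 1.42.0 as the test, scaling by upper quartiles or by DESeq2 size factors, a filter of 5 CPM in 3 libraries or none, a block on the replicate number, removal of a loess trend (span 0.5) on gene length, and the omission of single libraries. Lists without Ctrl replicate 1 were added after seeing the data. Values of some single marker genes are not reported here.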

Additional observations from a re-analysis of the deposited data

How the results depend on the processing

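Of the members, Ctsc, Ctsd, Ctse, Ctsh and Ctsk kept their call and direction under all 13 alternatives (log2 fold change 0.26 to 0.37, 0.19 to 0.25, 1.66 to 1.84, 0.43 to 0.59 and 0.51 to 0.62), Ctsz under 12 and Ctsl under 8, and none of the 10 reversed. The members higher were 5 to 8 and those lower 0 to 1 when 1 library was left out, and 8 and 0 with the length trend removed. Over all genes, leaving out 1 library gave 663 to 1708 higher and 1071 to 1820 lower, and removing the length trend gave 2554 higher and 1521 lower. The summed level in KAT7KO was 1.07 times that in Ctrl as a share of counts, and 1.10 times as a sum of FPKM. With the length trend removed, the inhibitors had 2 higher, the sorting genes 0 lower, the cathepsin A complex 2 higher, the TFEB family 2 higher and 1 lower, the proton pump 11 higher and 1 lower, and the macrophage markers 1 higher. Without Ctrl replicate 1, the inhibitors had 2 higher and 1 lower, other peptidases 4 and 1, and the cathepsin A complex 2 higher. Granule proteases then had 0 lower, antigen processing partners 1 lower, macrophage markers 2 higher and mast cell markers 0 lower. Calls over all genes tested moved too, from 10.7% higher and 13.2% lower to 13.5% and 14.4% without Ctrl replicate 1. With the length trend removed, those shares were 20.5% and 12.2%. Ctso reversed to 0.060 with the length trend removed, and ranged from -0.040 to 0.0079 when 1 library was left out (0.0076 without KAT7KO replicate 3, 0.0079 without Ctrl replicate 3). The dendritic cell marker Batf3 ranged from -0.20 to 0.065 (0.0073 without KAT7KO replicate 3), and neither gene passed. Fdft1 lost its call under DESeq2, upper-quartile factors, the higher filter, the block and the omission of any 1 KAT7KO library or Ctrl replicate 2. Lyz2 lost its call with no filter. The cause of these shifts was not tested. Same-numbered libraries did not deviate together (r = -0.0044, 0.0059 and 0.0213), and not every library correlated best with its own number. These values gave no sign of a pairing, but they cannot show that same-numbered cultures were not prepared together. With the replicate block 1290 genes were higher and 1522 lower, and the members gave 6 and 1. Under the block Mitf lost its call (adjusted p = 0.0544) and Cst3 passed (adjusted p = 0.0331). Depth limits the reading of Ctsf, Ctsw and the granule proteases, and the length trend limits that of Ctsl, Ctsa and Ctsb.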
